A study of Mus musculus with 19 samples.

Results

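The keratins described here are the 10 genes Krt5, Krt14, Krt15, Krt4, Krt13, Krt1, Krt10, Krt76, Krt78 and Krt80, which mark the basal and suprabasal layers of the oral mucosa. They were taken by name from a list of such keratins, chosen with earlier results of these data known. All 10 are among the 24689 gene symbols measured. The study sequenced polyA RNA from the whole tongue epithelium of 19 mice, 15 days after transgenes were induced. According to its methods, the mice were adult littermates in groups balanced for age and sex, tamoxifen was injected into the tongue and doxycycline was given in the diet. The labels name no strain. The 5 E mice carry the regulators Krt14-CreERT and LSL-rtTA with the effector tetON_E6-E7, which encodes oncoproteins of a human papillomavirus. In the 3 Y mice the effector is tetON_YAP1S127A, a form of the transcriptional coactivator YAP that its inhibitory kinases cannot phosphorylate at that serine. The 6 EY mice carry these regulators and both effectors. Of the 5 control mice (N), mice 1 to 3 carry Krt14-CreERT and LSL-rtTA alone, mouse 4 has only LSL-rtTA, and mouse 5 has Krt14-CreERT with both effectors but no rtTA. A reporter, tetON_H2B-GFP, is part of every genotype in the study's methods and is absent from the labels.

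The Krt14 promoter drives the Cre recombinase, so the transgenes are switched on in Krt14-expressing basal cells and stay on in the cells that descend from them. Among the 10 keratins, Krt14 is therefore also the gene whose promoter was borrowed for the model. Bulk RNA from an epithelium averages over all its layers and over cells with and without the transgenes. Levels are given in transcripts per 1000000 (TPM), a scale that corrects for gene length and adds up to 1000000 in each mouse. Read numbers can be worked out from the steps between TPM values, and came to between 8269674 and 11007304 reads per mouse. Krt13 was covered by 117280 to 660576 reads per mouse and Krt10 by 27 to 8420, whereas Krt1 had between 2 and 187. Its values in EY epithelia rest on 2 to 24 reads.

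Keratins are the intermediate filament proteins of epithelia, and each filament is built from pairs of an acidic type I and a basic type II chain. In stratified epithelia the basal cells make Krt5 with Krt14, and cells that leave the basal layer switch to other pairs, Krt4 with Krt13 in soft mucosa and Krt1 with Krt10 in skin and other cornified sites. The dorsal tongue combines both, since its surface bears cornified filiform papillae set in a softer epithelium.

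The sequence in front of the start of a few keratins is shown, to compare a basal chain with chains of the upper layers. RefSeq windows of 250 bases upstream of the start (build GRCm38.p6) matched 6 of the 10 keratins, and those of Krt5, a basal chain, Krt13, a mucosal chain, and the cornified Krt10 and Krt76 are printed from 5′ to 3′. Krt13 has 2 windows, and the one farther upstream is shown. Krt15, Krt4, Krt1 and Krt80 have no entry. All lie on the minus strand, Krt5 at chr15:101712906-101713155, Krt13 at chr11:100121567-100121816, Krt10 at chr11:99389365-99389614 and Krt76 at chr15:101892921-101893170. Capitals mark, on either strand, TATAAA of the TATA box, TGANTCA of AP-1, CATTCC of TEAD factors, through which YAP binds DNA, and CACCC of KLF factors. No marked motifs overlap.
Krt5: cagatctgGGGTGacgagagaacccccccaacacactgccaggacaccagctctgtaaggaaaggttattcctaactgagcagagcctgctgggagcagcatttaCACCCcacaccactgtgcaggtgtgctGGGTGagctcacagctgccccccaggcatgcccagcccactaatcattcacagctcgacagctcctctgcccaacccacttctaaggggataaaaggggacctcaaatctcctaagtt
Krt13: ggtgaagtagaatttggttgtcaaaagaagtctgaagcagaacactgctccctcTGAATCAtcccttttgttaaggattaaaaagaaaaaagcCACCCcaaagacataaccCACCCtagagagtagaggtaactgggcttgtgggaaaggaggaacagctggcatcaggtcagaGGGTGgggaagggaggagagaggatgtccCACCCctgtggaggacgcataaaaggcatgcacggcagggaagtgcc
Krt10: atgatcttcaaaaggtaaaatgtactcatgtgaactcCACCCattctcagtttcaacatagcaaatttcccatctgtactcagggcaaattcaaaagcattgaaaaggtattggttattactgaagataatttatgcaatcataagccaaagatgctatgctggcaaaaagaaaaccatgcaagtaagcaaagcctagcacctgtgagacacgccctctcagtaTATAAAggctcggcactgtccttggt
Krt76: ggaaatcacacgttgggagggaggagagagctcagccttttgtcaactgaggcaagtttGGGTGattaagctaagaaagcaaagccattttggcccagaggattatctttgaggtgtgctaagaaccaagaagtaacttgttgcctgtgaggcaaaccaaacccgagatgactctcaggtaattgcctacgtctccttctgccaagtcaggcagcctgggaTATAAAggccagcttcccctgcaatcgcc
The Krt10 and Krt76 windows each hold 1 TATAAA near the start and 1 CACCC. The Krt5 window holds 3 CACCC and none of the other motifs, and the Krt13 window printed holds 1 TGANTCA and 4 CACCC. The other Krt13 window, which is not printed, holds 2 TGANTCA and 1 CACCC. None of the windows printed holds CATTCC, of which 1 copy is in that of Krt14 and 1 in that of Krt78. Of all 32851 windows of this length, 12.4% hold TATAAA, 6.75% TGANTCA, 12.6% CATTCC and 52.0% CACCC. A match describes letters only and is neither a bound site nor a cause.

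The samples were checked against markers of keratinocytes and of other cell types of the tongue. The 7 keratinocyte markers, with Krt14 the most abundant, had median sums of 13838, 16903, 26406 and 32253 TPM in N, E, Y and EY epithelia, and none was at 0 in any mouse. Krt5 and Krt14 are among these 7, so the sum is no separate measure of them. The 6 leukocyte markers, led by Lyz2, had median sums of 112, 227, 65.4 and 183 TPM in N, E, Y and EY epithelia. The highest sum, 697 TPM, was in N mouse 1. The 6 fibroblast markers had median sums of 86.3, 82.5, 34.5 and 72.7 TPM in N, E, Y and EY epithelia. The 10 skeletal muscle markers, led by Acta1, ranged from 15.4 to 296 TPM in N and from 44.9 to 1501 in EY epithelia, with the highest sum in EY mouse 3. The epithelium was thus present in every mouse, with a varying admixture of underlying tissue. Endothelial markers summed to at most 5.30 TPM in any mouse, taste cell markers to at most 14.2 and melanocyte markers to at most 9.78. Salivary gland markers reached 82.6 TPM in N mouse 3 and 44.4 in N mouse 2, mostly from Dcpp1, and at most 3.56 in any mouse of the other groups. In EY against N epithelia 0 of 10 muscle, 0 of 6 leukocyte, 0 of 4 taste cell and 0 of 1 salivary gland markers passed limma's test described next, with 1, 1, 1 and 0 at an unadjusted p below 0.05. Of 6 fibroblast markers 1 fell, Dcn, with a log2 fold change of -2.36 ± 0.43, adjusted p = 0.000249, from a mean of 61.4 to 13.8 TPM, while the list median was 0.39 and the highest value 1.08. Of 3 melanocyte markers 1 fell, Dct (-1.10), and of 5 endothelial markers 1 rose, Tie1 (1.72), of which Dct was lost under 2 of 12 alternative settings and is removed by a filter at 1 TPM, and Tie1 was lost under 5 of 13. Of the 7 keratinocyte markers 3 rose, Krt14, Cdh1 (1.16) and Epcam (1.85), of which Cdh1 was lost under 4 settings, among them median-of-ratios scaling (0.78), while over all genes tested 12.6% rose and 5.71% fell. The median log2 difference of the muscle markers was 1.77, with adjusted p from 0.0221 upwards. In EY against Y the median was 2.62 for the muscle and 2.00 for the fibroblast markers, with 0 of 10 and 0 of 6 passing and 6 and 3 at an unadjusted p below 0.05. In Y against N all 6 fibroblast markers had negative values, from -1.86 to -1.02, with 0 passing and 1 at an unadjusted p below 0.05. In EY against E the median of the muscle markers was 2.38, with 0 of 10 passing and 9 at an unadjusted p below 0.05. There 1 of 6 fibroblast markers fell (smallest adjusted p = 0.00746), as did 1 of 3 melanocyte markers (smallest adjusted p = 0.00248). Of all genes, 12.8% passed in either direction in that comparison. Of all 22745 genes tested, 11043 had an unadjusted p below 0.05 in EY against N and 6562 in Y against N. In EY against Y these were 5425 genes and in EY against E 9909. The part of these cells in the keratin levels was not tested.

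Differences between groups are given as log2 fold changes of log2(TPM + 0.1) with their standard errors, where 1 and -1 stand for a factor of 2 up and down. They come from limma, fitted to the 22745 genes that reached 0.1 TPM in 3 or more mice, and all 10 keratins passed this filter. A gene rose or fell where its Benjamini-Hochberg adjusted p, which takes all 22745 genes into account, was below 0.01 and its log2 fold change was above 1 or below -1. The comparisons of E, Y and EY with N share the 5 N mice. Over all genes tested, the EY against N comparison had a median log2 value of 0.33. It became 0.009 after what is here called median-of-ratios scaling. For this, each mouse was divided by its median ratio to the geometric means of the tested genes that were above 0 in every mouse. EY values after this scaling are therefore given for each keratin.

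In N epithelia the keratins of soft mucosa stood above all others. The mean level was 71112 ± 15509 TPM (SD, n = 5) for Krt13, the most abundant of all genes measured, and 28549.7 ± 8681 TPM for Krt4, which ranked 3 among all genes. Then came Krt14, Krt76, Krt5, Krt15, Krt78, Krt10 and Krt80, and last Krt1 at 8.55 ± 2.56 TPM. The mice overlapped between the neighbours Krt14 and Krt76, Krt76 and Krt5, and Krt78 and Krt10, and between no other neighbours in this order. E epithelia kept nearly the same order, with Krt5 above Krt76 by mean level but overlapping it. In Y epithelia Krt76 stood below Krt15, and Krt4 overlapped Krt14. In EY epithelia Krt14 took the place after Krt13, ahead of Krt4, and overlapped both of them. Krt13 exceeded Krt14 in 4 of 6 EY mice. Krt10 there lay below Krt80 in every mouse, whereas in N it lay above Krt80 in every mouse.

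**Figure D1:**
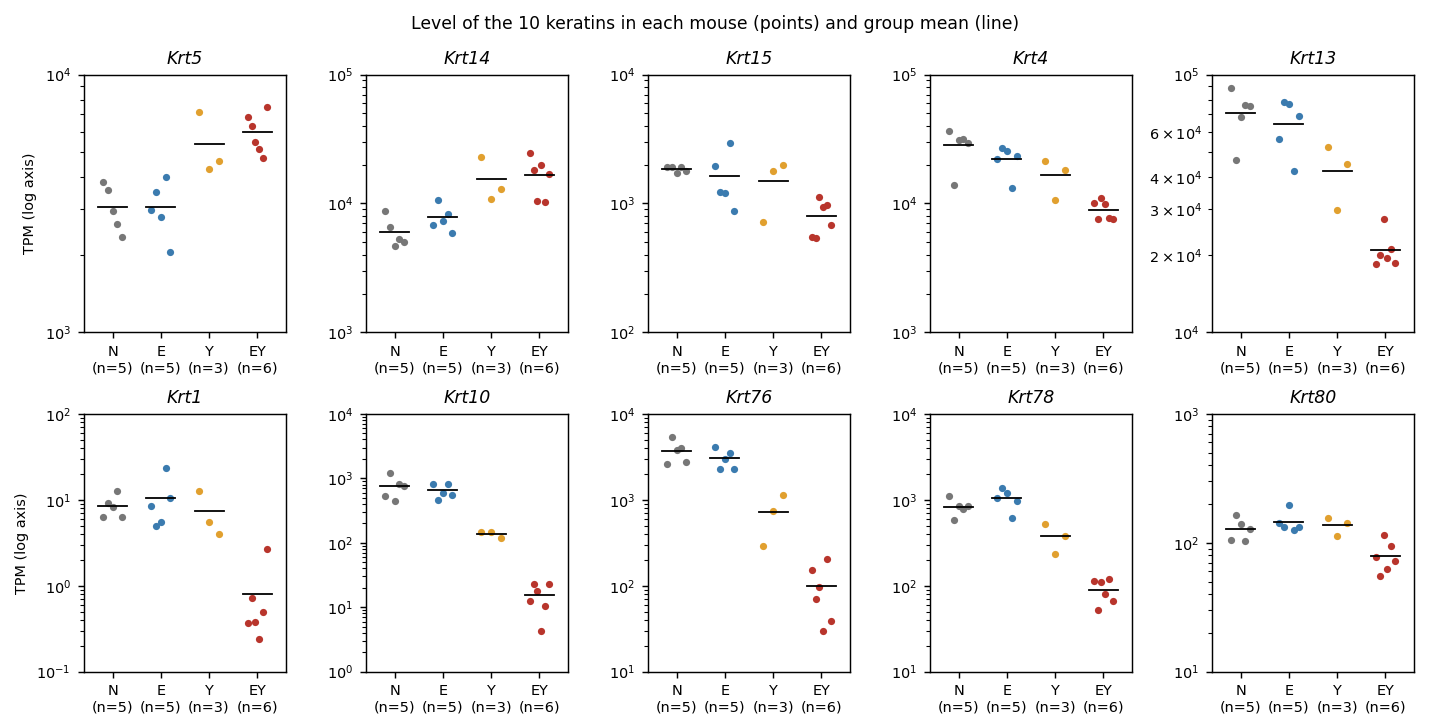
Level of each of the 10 keratins in TPM (log axis, a separate range for each gene) in each mouse (points) of the N, E, Y and EY groups, with the group mean as a line. The 6 EY mice lie above every N mouse for Krt5 and Krt14, overlap them for Krt80 and lie below all of them for the other 7 genes, such as Krt10 with at most 23.3 TPM in EY.

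Of the basal keratins, Krt5 and Krt14 stood higher in Y and EY epithelia, whereas Krt15 stood lower in EY. Krt5, the type II chain of basal cells, measured 3821, 3557, 2959.9, 2627 and 2339 TPM in N mice 1 to 5 and 2992, 3512, 2805, 4001 and 2055 TPM in E mice 1 to 5. In Y mice 1 to 3 it measured 7182, 4315 and 4614 TPM, and in the 6 EY mice it ranged from 4756 to 7455 with a median of 5892. Every Y and every EY mouse lay above every N mouse, while the E and N mice overlapped. The log2 fold change was 0.98 ± 0.20 in EY against N (adjusted p = 0.00067, n = 6 and 5), which does not reach the limit set for the fold change, and 0.60 after median-of-ratios scaling. With quantile normalization it was 1.14 and passed, as it did without N mouse 1 or 2 or without EY mouse 3, 4 or 5 (1.00 to 1.06). In Y it was 0.80 ± 0.24 (adjusted p = 0.0306, n = 3 and 5).

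Krt14, the type I partner of Krt5, measured 8724, 6536, 4658, 5279 and 5043 TPM in N and 6796, 10595, 7353, 8285 and 5917 TPM in E mice. The Y mice measured 22978, 10895 and 12943 TPM, and the EY mice ranged from 10196 to 24658 with a median of 17489. All Y and EY mice were above all N mice, and Y mouse 1 was high among the Y mice. Krt14 rose in EY epithelia by a log2 fold change of 1.43 ± 0.28 (adjusted p = 0.000402), or 1.05 after median-of-ratios scaling, and its mean became 2.76 times that of N. It moved from rank 26 to rank 6 among all genes. In Y the difference was 1.33 ± 0.33 with an adjusted p of 0.0108, just short of the threshold, and the call was made under 5 of the 13 alternative settings, among them limma voom on the recovered reads, and without N mouse 1 or EY mouse 1, 3 or 5. EY and Y did not differ detectably in Krt14, with a 95% interval of -0.58 to 0.78, nor in Krt5, with -0.31 to 0.67.

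Krt15 is a type I keratin of basal cells that marks progenitor cells in several stratified epithelia. It measured 1928, 1934, 1721, 1919 and 1796 TPM in N and 1948, 1234, 1204, 2968 and 877 TPM in E mice. In Y it measured 716, 1798 and 1971 TPM, and in EY it ranged from 535 to 1115 with a median of 815. The N mice were the most uniform, with an SD of 96.3 TPM against 836 in E, and EY was the only group whose mice all lay below the N mice. Krt15 thus fell in EY, with a log2 fold change of -1.27 ± 0.31, adjusted p = 0.00281, and -1.65 after scaling. The call was lost when only N mice 1 to 3 served as controls (adjusted p = 0.0175) and with the mouse number as a replicate block (0.0101). In Y it was -0.45 with an adjusted p of 0.475, where Y mouse 1, the highest for Krt14, was the lowest Y mouse for Krt15. Among the basal keratins, Krt14 therefore rose and Krt15 fell in the same EY epithelia. In RNA from whole epithelium, fewer cells of a layer and less RNA per cell cannot be told apart.

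Krt4 and Krt13, the type II and type I chains of the suprabasal cells of soft mucosa, were lower in EY epithelia by similar factors. Krt13 measured 88787, 46629, 68579, 76099.7 and 75464 TPM in N and 56254, 78068, 76667, 42349 and 69074 TPM in E mice. It measured 52169, 29697 and 44865 TPM in Y and ranged from 18471 to 27609 with a median of 19696 in EY mice. No EY mouse reached the lowest mouse of any other group, and N mouse 2 and E mouse 4 were the lowest of theirs. Krt13 fell in EY against N with a log2 fold change of -1.75 ± 0.28, adjusted p = 6.15e-05, and -2.13 after scaling, so that its mean in N was 3.41 times that in EY. It still ranked 4 among all genes in EY. In Y the value was -0.76 ± 0.34 (adjusted p = 0.142), with Y mice 1 and 2 on either side of N mouse 2.

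Krt4 measured 36778, 13826, 31147, 31637 and 29360.3 TPM in N and 22320.3, 26955, 25712, 13175 and 23356 TPM in E mice. The Y mice measured 21408, 10565 and 18032 TPM and the EY mice ranged from 7519 to 11004 with a median of 8811. As for Krt13, N mouse 2 and E mouse 4 were the lowest of their groups and every EY mouse was below every N and E mouse, but the highest EY mouse passed Y mouse 2. Krt4 fell in EY with a log2 fold change of -1.61 ± 0.28, adjusted p = 0.00017, and -1.99 after scaling. In Y against N it was -0.76 ± 0.34 (adjusted p = 0.148). The similar courses of both chains show in their ratio, with medians of 0.414, 0.338, 0.402 and 0.401 in N, E, Y and EY epithelia.

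Of the 10 keratins, Krt10 and Krt76 of cornified sites showed the largest differences between EY and N epithelia. Krt10, the type I chain of cornifying cells, measured 536, 1200.3, 444, 814 and 761 TPM in N and 819, 462, 589, 829.6 and 559 TPM in E mice. The Y mice measured 149, 149 and 116 TPM, and the EY mice ranged from 4.22 to 23.3 with a median of 15.2. N and E overlapped, all Y mice lay below them, and all EY mice lay below the Y mice. Krt10 fell in Y with a log2 fold change of -2.36 ± 0.44, adjusted p = 0.00146, and in EY with -5.73 ± 0.37, adjusted p = 3.12e-09. After scaling the EY value was -6.10. Its rank among all genes went from 193 in N to 5080 in EY, and the mean in N was 49.1 times that in EY. The Y call was lost with only N mice 1 to 3 (adjusted p = 0.0126) and without Y mouse 3 (0.012). Gm11940, a gene on the other strand, shares exon positions with Krt10 and had medians of 1632 TPM in N and 24.0 in EY. Whether counting told their reads apart is not known, and the level, rank and ratios of Krt10 carry this limit.

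Krt76, a type II keratin of the hard palate and other cornified oral surfaces, measured 2582, 5338, 3755, 3998 and 2740.0 TPM in N and 4126, 2309, 3006, 3511 and 2295 TPM in E mice. It measured 292, 748 and 1125 TPM in Y and ranged from 29.9 to 203 with a median of 82.8 in EY mice. The groups were ordered as for Krt10, without overlap between N and Y or between Y and EY, and Y mouse 1 was the lowest Y mouse. Krt76 fell in Y with a log2 fold change of -2.50 ± 0.54, adjusted p = 0.0041, and in EY with -5.49 ± 0.45, adjusted p = 4.06e-08, or -5.87 after scaling. Its Y call was less stable than its EY call, since it was lost with only N mice 1 to 3 (adjusted p = 0.018), with the mouse number as a replicate block (0.0126), with only the groups compared (0.0114) and, among the fits that left out a mouse, without N mouse 4, Y mouse 1 or Y mouse 2 (adjusted p up to 0.0337).

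Krt1, the type II partner of Krt10 in skin, was scarce throughout. It measured 6.37, 9.17, 8.34, 12.6 and 6.30 TPM in N and 8.57, 4.95, 5.53, 23.3 and 10.6 TPM in E mice. The Y mice measured 12.5, 5.44 and 4.01 TPM, and the EY mice ranged from 0.239 to 2.65 with a median of 0.436. E mouse 4 was the highest mouse, and only the EY mice lay apart from the rest. Krt1 fell in EY against N with a log2 fold change of -3.61 ± 0.49, adjusted p = 1.25e-05, -3.95 after scaling and -2.47 with a pseudocount of 1 TPM. In Y against N its value was -0.34 ± 0.59 (adjusted p = 0.758). At 2 to 24 reads per EY mouse, counting error limits the precision of its level there.

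Krt78 and Krt80 are type II keratins of differentiating epithelial cells. Krt78 measured 1103, 580.2, 844, 777 and 847 TPM in N and 1043, 1356, 1186, 617 and 973 TPM in E mice. It measured 518, 235 and 381 TPM in Y and ranged from 51.7 to 119 with a median of 95.6 in EY mice. All Y mice lay below all N mice, and all EY mice below all Y mice. Krt78 fell in EY with a log2 fold change of -3.24 ± 0.26, adjusted p = 3.63e-08, or -3.62 after scaling, while in Y the value was -1.18 ± 0.32 with an adjusted p of 0.016, short of the threshold. Krt80 measured 104, 164, 139, 104 and 128 TPM in N and 142, 132, 197, 126 and 134 TPM in E mice. The Y mice measured 154, 112 and 142 TPM, and the EY mice ranged from 54.9 to 116 with a median of 75.0. Krt80 was the only one of the 10 with overlap between EY and N mice. Its value in EY against N was -0.71 ± 0.18 (adjusted p = 0.00437), within the limit on the fold change, and it passed after median-of-ratios scaling, at -1.09.

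**Figure D2:**
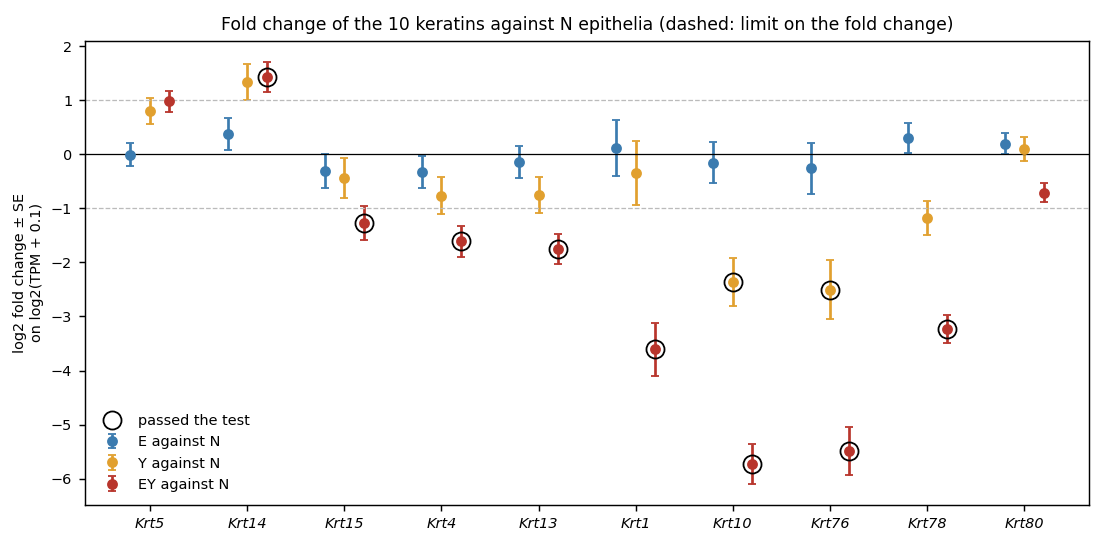
Log2 fold change of each of the 10 keratins in E, Y and EY against N epithelia (points, with the standard error as bars). Black rings mark values that passed the test and dashed lines the limit on the fold change. All E values lie between -0.33 and 0.38, whereas the EY values run from -5.73 for Krt10 to 1.43 for Krt14.

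Counted over the 10 keratins, EY against N showed 1 rise, of Krt14, where 12.6% of all genes tested rose. It showed 7 falls, of Krt15, Krt4, Krt13, Krt1, Krt10, Krt76 and Krt78, where 5.71% of all genes fell. Apart from Krt15, these calls were made under all 13 alternative settings and in all 19 fits that left out a mouse. The EY and N mice did not overlap for 9 keratins, which held for 27.4% of all genes. The median log2 fold change of the 10 keratins in EY was -1.68 against 0.33 for all genes. Since the 10 were chosen with earlier results of these data known, setting them beside all genes is a description and no test. In Y against N 2 keratins fell, Krt10 and Krt76, where 4.58% of all genes passed in either direction, and the median of the 10 keratins was -0.60 against 0.13. With only N mice 1 to 3 as controls the count was 0, and limma voom on the recovered reads gave 4. The Y and N mice did not overlap for 5 keratins, Krt5 and Krt14 above and Krt10, Krt76 and Krt78 below, which held for 21.1% of all genes. The plot of fold changes shows both comparisons, with the EY point beyond the Y point for each of the 9 keratins that lay apart from N in EY.

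E epithelia were not detectably different from N in any of these keratins. By limma 0 of 10 passed, where 1.20% of all genes did in either direction, and limma voom also called 0. An unadjusted p below 0.05 was reached by 0 of 10, and by 3358 of all 22745 genes tested. No keratin separated the E from the N mice, which 4.57% of all genes did. The median log2 fold change of the 10 was -0.08 against 0.07 for all genes. The 95% intervals show what this number of mice allows. For Krt5 the interval was -0.45 to 0.43, for Krt13 -0.76 to 0.47, for Krt10 -0.96 to 0.65 and for Krt76 -1.25 to 0.73. None of these reaches the values measured in EY, while those of Krt10 and Krt76 still allow falls near or past the limit on the fold change.

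Adding E6-E7 to active YAP is read from EY against Y, with 6 and 3 mice. In this comparison 4 of the 10 keratins fell, where 2.00% of all genes passed in either direction. Their log2 fold changes were -3.36 ± 0.43 for Krt10 (adjusted p = 0.000222), -3.27 ± 0.57 for Krt1 (0.00208), -2.98 ± 0.52 for Krt76 (0.00206) and -2.06 ± 0.31 for Krt78 (0.000704). A fit to the EY and Y mice alone kept only the call of Krt10, with adjusted p of 0.0231 for Krt1, 0.0332 for Krt76 and 0.011 for Krt78. The call of Krt76 was also lost with the mouse number as a replicate block (0.0188) and without Y mouse 2 (0.0143) or 3 (0.0185), and that of Krt1 without Y mouse 1 (0.0233). Krt13 had -0.99 (adjusted p = 0.0674) and Krt4 -0.85 (0.125), although every EY mouse lay below every Y mouse for Krt13, which limma voom called (-1.06, adjusted p = 0.00151).

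Adding active YAP to E6-E7 is read from EY against E, with 6 and 5 mice, and 7 of 10 keratins passed where 12.8% of all genes did in either direction. Krt14 rose by 1.06 ± 0.28 (adjusted p = 0.00588). Krt4, Krt13, Krt1, Krt10, Krt76 and Krt78 fell, from -1.29 for Krt4 to -5.57 for Krt10 (adjusted p = 1.19e-08). The rise of Krt14 lies close to the limit and was called under 9 of 13 alternative settings and in 11 of 19 fits that left out a mouse. It was lost after median-of-ratios scaling (0.79), by limma voom (0.92), with no filter (adjusted p = 0.0127), with only the groups compared (0.0104), without E mouse 1, 3, 4 or 5 and without EY mouse 1, 2, 4 or 6 (log2 fold changes from 0.93 to 1.09). Krt5 had 0.98 (adjusted p = 0.000821) and Krt80 -0.90 (0.000814), both within the limit on the fold change though no EY and E mice overlapped. Krt5 passed with quantile normalization and without E mouse 2 or 4 or EY mouse 3, 4 or 5, and Krt80 after both scalings, by limma voom and without EY mouse 3. Krt15 had -0.96 with an adjusted p of 0.0214, and fell after median-of-ratios scaling, by limma voom and without E mouse 5.

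The interaction asks whether the effect of both transgenes differs from the sum of the single effects on the log2 scale. By limma 0 of 10 keratins passed, where 0.176% of all genes did in either direction, and limma voom called 2. An unadjusted p below 0.05 was reached by 5 of the 10, and by 3072 of all 22745 genes tested. All of these 5 keratins had negative values. They were -2.36 ± 0.41 for Krt78 (adjusted p = 0.0105), -3.21 ± 0.57 for Krt10 (0.0137), -3.38 ± 0.77 for Krt1 (0.0468) and -2.72 ± 0.70 for Krt76 (0.0796). The fifth, Krt80, had an adjusted p of 0.113. A departure from the sum of the single effects was thus not established for any keratin at the threshold used, and Krt78 and Krt10 came nearest to it.

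Ratios between keratins within a mouse do not depend on how that mouse was scaled, and 9 of them were compared between groups with an exact permutation test on both sides, adjusted for the 36 tests made and read at a threshold of 0.05. The ratio of Krt13 to Krt14, suprabasal over basal type I chain, had medians of 14.4, 8.28, 2.73 and 1.10 in N, E, Y and EY epithelia. It ranged from 7.13 to 14.96 over the N mice and from 0.749 to 2.63 over the EY mice. These ranges do not overlap, and in EY epithelia both chains were of like abundance. The log2 difference between EY and N was -3.18, with SDs of 0.69 in EY and 0.47 in N. The type II counterpart, Krt4 to Krt5, went from a median of 10.5 in N to 1.55 in EY, a log2 difference of -2.59. For the cornified chains the log2 difference was -7.17 for Krt10 to Krt14 and -4.85 for Krt1 to Krt5. Read the other way, Krt14 exceeded Krt10 by median factors of 6.63, 10.6, 111 and 864 in N, E, Y and EY epithelia.

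The ratio of Krt15 to Krt14, both basal type I chains, fell by 2.71 on the log2 scale in EY, and the ratio of Krt1 to Krt10 rose by 1.87 although both genes fell, with Krt1 at 2 to 24 reads per EY mouse. These 6 ratios passed in EY against N, each with an exact permutation p of 0.00433, the smallest that 6 against 5 mice allow, and an adjusted p of 0.026. When any 1 of the N mice was left out, the adjusted p of these 6 ratios was 0.0571 and none passed. The other 3 ratios did not pass. They pair chains of the same layer or site, as do Krt15 to Krt14 and Krt1 to Krt10, which passed. Krt5 to Krt14 differed by -0.45 (exact p = 0.0649, adjusted p = 0.129), Krt4 to Krt13 by 0.14 (exact p = 0.368) and Krt76 to Krt10 by 0.25 (exact p = 0.71). In Y against N the smallest possible exact p is 0.0357 and none passed, with log2 differences of -2.09 for Krt13 to Krt14, -3.69 for Krt10 to Krt14, -1.78 for Krt15 to Krt14, -0.53 for Krt5 to Krt14 and 2.02 for Krt1 to Krt10, all without overlap (adjusted p = 0.0918). None passed in E against N, where 1 had an exact p below 0.05, Krt5 to Krt14 (exact p = 0.0397, adjusted p = 0.0952), or in EY against Y. There the smallest possible exact p of 0.0238 was reached by Krt10 to Krt14 with -3.48, Krt1 to Krt5 with -3.70 and Krt4 to Krt5 with -1.03, and Krt13 to Krt14 had an exact p of 0.0476.

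**Figure D3:**
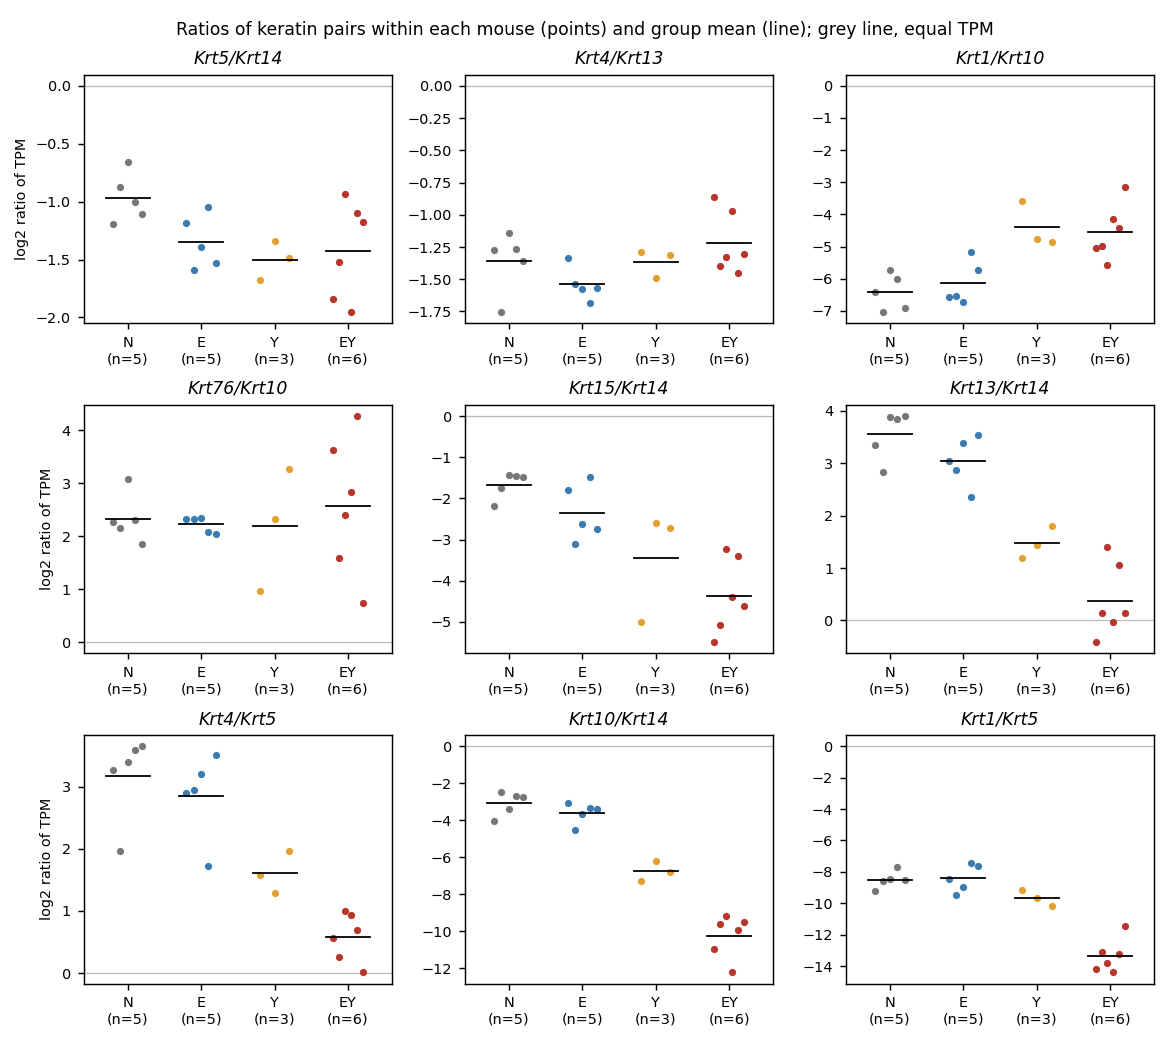
Log2 ratio of the TPM of keratin pairs within each mouse (points) of the N, E, Y and EY groups, with the group mean as a line and a grey line at equal TPM. The ratio of Krt13 to Krt14 averages 3.56 in N and 0.38 in EY, while Krt4 to Krt13 averages -1.36 and -1.22.

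Together the 10 keratins made up 11.6 ± 2.33%, 10.4 ± 1.93%, 8.28 ± 2.36% and 5.36 ± 0.534% of all TPM in N, E, Y and EY epithelia (mean ± SD, n = 5, 5, 3 and 6). The EY mice, from 4.52 to 6.11%, lay below all N mice, from 7.98 to 14.4%. Within this sum the basal chains Krt5, Krt14 and Krt15 took 9.80 ± 3.09%, 12.5 ± 4.56%, 27.2 ± 3.44% and 43.5 ± 8.63% in the same order of groups. Krt4 and Krt13 took 85.2 ± 5.28% in N and 55.9 ± 8.49% in EY. Krt1, Krt10 and Krt76 went from 4.19 ± 2.35% to 0.220 ± 0.144%. So the keratin transcripts of EY epithelia were both a smaller share of the whole and more basal in make-up. The type I sum over the type II sum, by contrast, was 2.22 ± 0.181, 2.52 ± 0.210, 2.57 ± 0.0984 and 2.52 ± 0.156. It ranged from 1.94 to 2.40 over the N and from 2.33 to 2.75 over the EY mice. These shares are descriptions and were not tested.

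**Figure D4:**
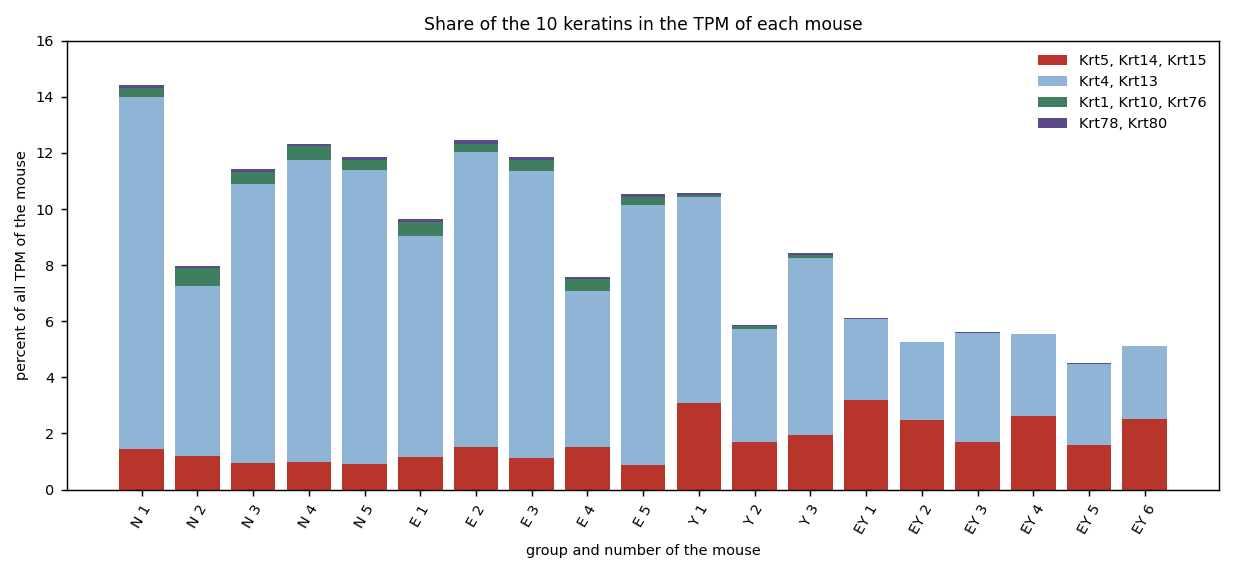
Share of all TPM (percent, vertical axis) taken by the 10 keratins in each mouse, stacked by layer. The stacks average 11.6% in the 5 N mice and 5.36% in the 6 EY mice, and the basal chains in red fill 9.80% of the stack in N and 43.5% in EY.

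The keratins lie in clusters, of which the order is given here from RefSeq (GRCm38.p6). On chromosome 11, Krt13 and Krt15 are neighbours and both fell in EY, while the gene next to Krt15, Krt19 of simple epithelia, rose by 5.04 ± 0.42. Krt14, which rose, is followed by Krt16, with -0.17 ± 0.34 (adjusted p = 0.723), and by Krt17, which rose by 2.96 ± 0.20. On chromosome 15, Krt76 and Krt4 are neighbours and both fell, with -5.49 and -1.61. Krt6a, next to Krt5, had 0.40 ± 0.24 (adjusted p = 0.206). Of 21 listed keratin genes on chromosome 11, 3 rose and 13 fell in EY, and of 20 on chromosome 15, 1 rose and 9 fell, where 12.6% of all genes tested rose and 5.71% fell.

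**Figure D5:**
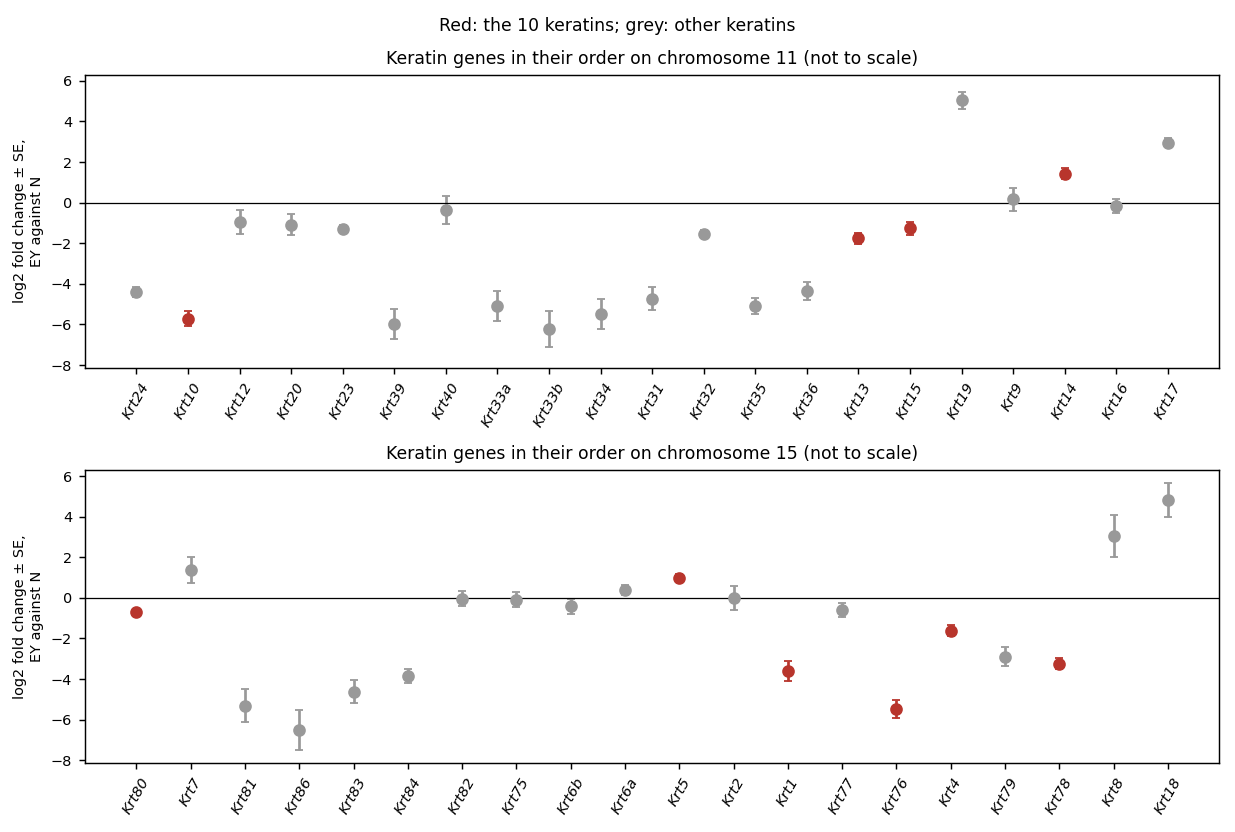
Log2 fold change in EY against N epithelia (vertical axis, bars for the standard error) of the listed keratin genes in their order on chromosomes 11 and 15, with the 10 keratins in red and others in grey. Some neighbours share a direction, as the run from Krt33a to Krt15 that fell, and others differ, as Krt15 at -1.27 and Krt19 at 5.04.

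Other keratins and layer genes are counted here beside the share of all genes tested that passed in EY against N, 12.6% upward and 5.71% downward. Of 17 other keratins of skin, mucosa and simple epithelia, 3 rose in EY, Krt17, Krt18 and Krt19, and 3 fell, Krt23, Krt24 and Krt79, with a list median of -0.10 (-0.47 after scaling) against 0.33 for all genes. In Y, 2 of the 17 rose, Krt17 and Krt19, by 2.10 and 4.25, and 1 fell, Krt24, with -1.51, which was lost with only the groups compared (adjusted p = 0.0362) and without Y mouse 1 (0.0145), where 4.58% of all genes passed in either direction. Of 14 keratins of hair and of filiform papillae in the table, 0 rose and 12 fell in EY, with a median of -4.92 beside -5.73 for Krt10 and -5.49 for Krt76. Among the proteins that bundle keratin filaments or tie them to junctions, 0 of 12 rose and 2 fell, where 12.6% and 5.71% of all genes did, filaggrin (Flg, -3.18) and trichohyalin (Tchh, -2.95), with a median of -0.29 (-0.67 after scaling).

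Non-keratin genes of the layers were listed as well. Of 9 basal genes, 3 rose in EY, P-cadherin (Cdh3) with a log2 fold change of 2.19 and the integrins Itga3 and Itgb1 with 1.26 and 1.39. The other 6 did not pass, from -0.73 for Col17a1 to 0.94 for Itga6, with 0.03 for Itgb4 and 0.02 ± 0.17 (adjusted p = 0.932) for Trp63, the master regulator of the basal state. After median-of-ratios scaling Col17a1 fell, at -1.11, and Itga3 no longer passed, at 0.89. Of 12 suprabasal genes 0 rose and 5 fell, where 12.6% and 5.71% of all genes did, with a median of -0.59 (-0.97 after scaling). They include the desmosomal cadherins Dsg1a (-3.54) and Dsc1 (-3.36), whose falls lay near those of Krt1 and Krt78.

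The profile of each keratin over the 19 mice was set against those of 6217 genes with a mean of at least 10 TPM, by the root mean square difference of log2 values from the mean of N. Krt1 lay below that level and was not compared. Krt4 and Krt13 were each other's nearest gene, at 0.22, and Decr2 and Psapl1 came next for both. Krt5 and Krt14 differed by 0.47 and had nearer genes, Cavin1 (0.19), Arhgdia and C1qbp for Krt5 and Serinc2 (0.24), Pgam1 and Cfl1 for Krt14. Nearest to Krt15 were Sox4 (0.44), Gdpd2 and Mxd4, a weaker likeness than for the other basal chains. Krt10 and Krt76 differed by 0.81. Nearest to Krt76 were Serpina12 (0.64), Fmo2 and Fetub, to Krt78 Xkrx (0.33), Kprp (0.38) and Acp7, and to Krt80 Dnajb2 (0.17), Spns2 and Scnn1a.

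Krt10 came closest to Gm11940 (0.26), an antisense gene that shares exon positions with it on the other strand, and then to Hrnr (0.74) and Lce1d (0.74), genes of the cornified envelope. Gm11940 had medians of 1632, 1210.0, 274 and 24.0 TPM in N, E, Y and EY epithelia. The sources used here do not say whether counting used the strand, so reads of Krt10 and of Gm11940 cannot be told apart. The level, rank, place in the order and ratios given above for Krt10 carry this limit. Krt80 shares exon positions with Gm35853 in the same way, whose median was 6.43 TPM in N and 3.78 in EY.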

How the data were processed

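The RNA of tongue epithelium was sequenced in 19 mice (5 N, 5 E, 3 Y and 6 EY). According to the processing notes, the authors aligned reads to GRCm39 with STAR 2.7.9, sorted them with SAMtools 1.7, counted them with HTSeq 0.13.5 and used DESeq2 1.34.0. The authors deposited TPM values, and the sources used here do not state how counts became TPM. Reads were recovered from the steps of these values in 24680 of 24680 genes above 0, to within 0.01 reads, and came to 8269674 to 11007304 per mouse. They served for depth and for limma voom, and counting error limits the precision only of scarce genes such as Krt1.

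The 22745 genes that reached 0.1 TPM in 3 or more mice were fitted with limma 3.58.1 in R 4.3.3 on log2(TPM + 0.1), with lmFit, eBayes with a trend and a mean for each group. A call needed an adjusted p below 0.01 together with a log2 fold change above 1 or below -1. For log2 ratios of keratins within a mouse, exact permutation tests (two-sided) were adjusted for the 36 tests made, with a threshold of 0.05. Python 3.11.15, numpy 2.4.6, pandas 2.3.3, scipy 1.17.1 and matplotlib 3.10.9 made tables and figures. The fit was also run on simulated data, and no outcome of that run is reported here.

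Named are all 10 keratins, genes of the lists, and the 3 genes with the profile most like each keratin except Krt1, which was too scarce to compare. The members and lists were chosen with earlier results of these data known. Alternatives were other pseudocounts, filters, scalings and thresholds, limma voom, robust eBayes, only the 3 N mice with Krt14-CreERT and LSL-rtTA, the mouse number as a block, a fit to only the groups compared, and leaving out each mouse in turn. For the genes of the other lists and the markers they were added after seeing the data. The list of basal layer genes as a whole is not reported here. No gene symbol stands for a transgene.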

Additional observations from a re-analysis of the deposited data

Results flagged for a closer look

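In 57 groups of 5 or 6 mice, the highest or the lowest mouse was checked for a wide gap to the others, and 4 groups held such a mouse, where chance alone gives about 1 in 20. Krt13 was at 27609 TPM in EY mouse 3 and between 18471 and 21087 in the other EY mice. That mouse also had the highest sum of muscle markers, 1501 TPM, whose part in its Krt13 level was not tested. Krt1 was at 2.65 TPM in EY mouse 6 and between 0.239 and 0.729 in the others, which corresponds to 24 reads against 2 to 7. Krt80 was at 197 TPM in E mouse 3 and between 126 and 142 in the other E mice. The log2 ratio of Krt4 to Krt5 was 1.96 in N mouse 2 and between 3.27 and 3.65 in the other N mice.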

How the results depend on the processing

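In EY against N, Krt14, Krt4, Krt13, Krt1, Krt10, Krt76 and Krt78 passed in all 13 alternative settings and all 19 fits without 1 mouse, and the number of keratins that passed was 7 to 10 (8 as reported). In Y against N, 2 passed as reported, 4 by limma voom on recovered reads, 4 at an adjusted p below 0.05, 1 with only the groups compared and 0 with only the 3 N mice that carry Krt14-CreERT and LSL-rtTA; leaving out a mouse gave 1 to 3. In EY against Y, 4 passed as reported, 5 by limma voom, 1 with only the groups compared and 3 to 4 without 1 mouse. For the interaction, 0 passed as reported, 1 with a pseudocount of 0.01 TPM, with a filter at 1 TPM or with quantile normalization, 2 by limma voom and 3 at an adjusted p below 0.05, and 0 to 2 without 1 mouse. In EY against E, 7 passed as reported, 6 with no filter or with only the groups compared, 8 with median-of-ratios scaling or limma voom, 9 with quantile normalization and 6 to 9 without 1 mouse. In E against N, 0 passed throughout. Of the keratin pair ratios, 6 passed as reported, 0 with only the 3 N mice, 0 with the difference of group medians and 0 to 6 without 1 mouse. Fewer N mice raise the smallest possible exact p, and for the other changes the cause was not tested.

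With the mouse number as a replicate block, 7 keratins passed in EY against N, 2 in Y against N, 0 in E against N, 3 in EY against Y, 7 in EY against E and 0 for the interaction. Against the calls as reported, Krt15 in EY against N (adjusted p = 0.0101) and Krt76 in Y against N (0.0126) and in EY against Y (0.0188) were lost, and Krt78 in Y against N passed (0.00986). The numbers do not pair the mice, since 0 of 24 same-numbered pairs had a correlation of deviations above 0.1 (from -0.0426 to 0.0764). No other group has a mouse 6, so EY mouse 6 adds nothing to this fit.

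Some small differences that had not passed changed sign, and the cause was not tested. With the difference of group medians, the log2 ratio of Krt1 to Krt10 became -0.15 in E against N and 0.066 in EY against Y, that of Krt4 to Krt13 -0.046 in EY against N and -0.0025 in EY against Y, and that of Krt76 to Krt10 0.054 in E and 0.061 in Y against N. With a pseudocount of 1 TPM, Krt1 to Krt10 in EY against Y became 1.08. With only the 3 N mice, Krt4 to Krt13 in Y against N became 0.024. With quantile normalization, the log2 fold change in E against N became 0.19 for Krt13, 0.062 for Krt4 and 0.059 for Krt5, and that of Krt80 in Y against N became -0.19. With median-of-ratios scaling, Krt80 in Y against N became -0.10 and Krt14 in EY against Y -0.074.

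Without 1 mouse, log2 ratios ranged from -0.43 to 0.26 for Krt1 to Krt10 in EY against Y, from -0.12 to 0.40 for Krt1 to Krt5 in E against N, from -0.10 to 0.058 for Krt4 to Krt13 in Y against N and from -0.019 to 0.18 for Krt5 to Krt14 in EY against Y. Krt76 to Krt10 ranged from -0.22 to 0.083 in E, from -0.089 to 0.62 in EY and from -0.68 to 0.47 in Y against N, and from -0.22 to 0.93 in EY against Y. Log2 fold changes in E against N ranged from -0.22 to 0.33 for Krt1, from -0.32 to 0.036 for Krt10 and from -0.11 to 0.13 for Krt5. Krt14 ranged from -0.12 to 0.42 in EY against Y and from -0.49 to 0.045 for the interaction, and Krt15 from -0.71 to 0.019 in Y against N. Of the log2 fold changes of keratins under other settings, 720 kept direction and side of the threshold, 30 newly passed and 14 no longer passed. For the genes of the other lists and the markers, the same settings were added after seeing the data. In EY against N, Itga3 was lost with both scalings (0.89 and 0.87), Itgb1 with quantile normalization (0.98), Cdh1 with both scalings, limma voom or the 3 N mice (0.75 to 0.9957), Dct, which the filter at 1 TPM removes, with a pseudocount of 1 TPM (-0.19), with only the groups compared or without N mouse 2 (-0.86), and Tie1 under 5 settings and without N mouse 4 or 5 or EY mouse 1, 2 or 3 (adjusted p up to 0.0773). No other call of these genes in EY against N was lost. Col17a1 newly passed with the 3 N mice (-1.04), with median-of-ratios scaling (-1.11), with quantile normalization (-1.13) or with no limit on the fold change, and Itga6 without that limit and without N mouse 1 or EY mouse 3 or 5 (1.03 to 1.05). Near 0 and not passing, Trp63 and Itgb4 changed sign with median-of-ratios scaling (-0.35 for both), quantile normalization (-0.36 and -0.39), limma voom (-0.14 for both), only the 3 N mice (-0.18 and -0.26) and the mouse number as a block (-0.0058 and -0.010), and without 1 mouse ranged from -0.099 to 0.13 and from -0.12 to 0.19.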
